A study of Mus musculus with 6 samples.

Results

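The mitochondrial ribosomal protein genes were taken as all protein-coding genes with a symbol that starts with Mrpl or Mrps followed by a digit, with symbols containing -ps left out. There were 78 such genes among the 56748 listed, 49 named for the large subunit (*Mrpl*) and 29 for the small subunit (*Mrps*), and 5 pseudogene symbols were left out. The members lie on 17 chromosomes, with the most, 11, on chromosome 11. Bulk RNA-seq was carried out on naïve CD4 T cells from spleen and lymph nodes (splenocytes per the labels) of wild-type C57BL/6 mice aged 6 to 10 weeks, to find how transcripts change when *Pgam*, which encodes the glycolytic enzyme phosphoglycerate mutase, is targeted during Treg polarization. Cells were stimulated with plate-bound anti-CD3 and soluble anti-CD28 for 3 days with IL-2, TGF-β, anti-IFNγ and anti-IL-4. An antisense oligonucleotide (ASO), a short synthetic strand that binds a matching RNA, was in the medium from the start at 10 μM, either scrambled or directed at *Pgam*. RNA came from unsorted cultures, 3 labelled scrambled ASO and 3 labelled *Pgam* ASO, which the study calls biological replicates, so the p-values measure the spread between these cultures. Deposited values are kallisto's estimated counts per gene, with totals of 17588755, 18032805 and 16231127 for scrambled ASO replicates 1, 2 and 3 and of 16589933, 15860476 and 16803881 for *Pgam* ASO replicates 1, 2 and 3.

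Mitochondria carry ribosomes of their own, which translate only the few mRNAs of the mitochondrial genome, all for subunits of the respiratory chain and the ATP synthase. Their RNA is transcribed inside the organelle, whereas all of their proteins are encoded in the nucleus, made in the cytosol and imported. Some of these proteins descend from those of bacterial ribosomes and others are particular to mitochondria, and T cells enlarge their mitochondrial machinery when they are activated.

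Values of the targeted genes check the labels. *Pgam1* had 10655, 8847 and 11414 counts under the scrambled ASO label (replicates 1, 2 and 3) and 10601, 10299 and 11949 under the *Pgam* ASO label. The groups overlapped, and it was not lower under the *Pgam* ASO label (log2 fold change 0.18, SE 0.13, edgeR adjusted p = 0.331). Of all 31-base stretches in its transcripts 37.1% also occur in the pseudogene *Pgam1-ps2*, and the tool must assign reads from shared sequence by estimate. *Pgam2* had 93, 125 and 46 counts under the scrambled ASO label (replicates 1, 2 and 3) and 48, 42 and 44 under the *Pgam* ASO label, with replicate 3 labelled scrambled ASO inside the range of the other label (log2 fold change -0.84, SE 0.31, edgeR adjusted p = 0.0854). With replicate 3 labelled scrambled ASO left out, *Pgam2* passed the test (log2 fold change -1.11, edgeR adjusted p = 0.0144), as it did with no filter on low counts (-0.83, 0.0292). Since *Pgam1*, by far the more abundant of both, was not lower, groups are named by their labels throughout, and every direction rests on those labels. By flow cytometry the study reports less PGAM1 protein and less Treg differentiation with the *Pgam* ASO. *Foxp3* RNA was lower under that label here, as given below. A positive log2 fold change means a higher level under the *Pgam* ASO label, and CPM is a count scaled to the library's total, corrected by the TMM method.

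Markers were used to check the labelled cell type. The 5 CD4 T cell markers, *Cd3e*, *Cd3d*, *Cd3g*, *Cd4* and *Lck*, summed to 1938, 2045 and 1828 CPM under the scrambled ASO label (replicates 1, 2 and 3) and 1651, 1691 and 1821 CPM under the *Pgam* ASO label. The groups did not overlap in this sum, and *Cd4* was the most abundant of the 5. *Cd4* itself was at 775, 804 and 732 CPM under the scrambled ASO label and 650.2, 651 and 697 CPM under the *Pgam* ASO label (log2 fold change -0.21, SE 0.078, edgeR adjusted p = 0.0869). By edgeR 0 of the 5 passed the adjusted threshold in either direction, 4 were lower at an unadjusted p under 0.05, and DESeq2 called 1 lower and limma-voom 0. Without replicate 3 labelled scrambled ASO edgeR called 3 of the 5 lower, and without replicate 3 labelled *Pgam* ASO 2, and these are also the fits with the most members called. Among the Treg markers, *Foxp3*, which encodes the lineage factor of Tregs, fell to 109.8 ± 20.6 CPM, against 291 ± 74.7 CPM under the scrambled ASO label (SD, n = 3 each) (log2 fold change -1.41, SE 0.20, edgeR adjusted p = 0.00567), and *Il2ra*, which encodes the IL-2 receptor alpha chain, rose to 2768 ± 236 CPM, against 1929 ± 295 CPM under the scrambled ASO label (SD, n = 3 each) (log2 fold change 0.52, SE 0.12, edgeR adjusted p = 0.0185). With each library left out in turn *Foxp3* passed in 6 of 6 fits, and *Il2ra* in all but those without replicate 1 labelled scrambled ASO or replicates 1 or 2 labelled *Pgam* ASO (adjusted p 0.0725, 0.0639 and 0.0967). *Ikzf2*, which encodes Helios, fell (log2 fold change -0.57, SE 0.17, edgeR adjusted p = 0.0484) and then passed only without replicate 3 of either label (adjusted p up to 0.139 in the others), and *Ctla4* did not pass the test (log2 fold change -0.28, SE 0.091, edgeR adjusted p = 0.0575). Markers of other cell types were low. The 2 CD8 T cell markers summed to 11.3, 13.5 and 10.8 CPM and 14.6, 10.9 and 15.7 CPM, with *Cd8b1* the most abundant and not passing (log2 fold change -0.20, SE 0.18, edgeR adjusted p = 0.454), and *Cd8a* rose (log2 fold change 1.12, SE 0.29, edgeR adjusted p = 0.0286), though not without replicate 1 of either label (adjusted p 0.0989 and 0.1004). B cell markers (5 genes, *Cd79a* the most abundant) summed to 9.28, 11.6 and 6.63 CPM and 9.75, 8.92 and 7.87 CPM in the same order of libraries. Myeloid markers (5 genes, *Cd68* the most abundant) summed to 7.93, 8.70 and 7.74 CPM and 5.96, 5.52 and 7.40 CPM, lower under the *Pgam* ASO label without overlap. Of the 3 tested, 2 had fold changes below 0. The other, *Lyz2*, was higher without overlap (log2 fold change 0.35, SE 0.33, edgeR adjusted p = 0.481). The 4 mast cell and basophil markers, led by *Cpa3*, summed to 1.07, 1.89 and 1.36 CPM and 4.10, 3.98 and 2.96 CPM, so the groups did not overlap. Erythroid markers (5 genes, *Alas2* the most abundant and *Hba-a2* at 0 in every library) summed to 2.70, 2.16 and 1.55 CPM and 1.55, 2.12 and 2.49 CPM, and the 3 NK cell markers to 0.0563, 0.108 and 0 CPM and 0.0621, 0.0642 and 0 CPM, with *Klrb1c* and *Klra8* at 0 in every library and *Ncr1* the most abundant. Of these lists 5 B cell, 3 myeloid, 2 erythroid and 1 mast cell marker could be tested, and 0 passed by edgeR. At an unadjusted p under 0.05, 1 B cell marker and *Cpa3* were higher and 1 B cell and 1 myeloid marker lower. DESeq2 called 1 B cell marker higher, 1 lower and *Cpa3* higher, and limma-voom called *Cpa3* higher. Without replicate 3 of either label edgeR called 1 B cell marker higher, 1 lower and 1 of 2 tested mast cell and basophil markers higher, and of these last 2 also 1 without replicate 2 labelled scrambled ASO. The part of these markers in the results below was not tested. In bulk RNA, fewer cells of a type and less RNA per cell cannot be told apart.

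Of the 78 members, 77 passed the filter on low counts and were tested, with 220 to 2057 counts in a library. By edgeR 19 of the 77 were higher in the libraries labelled *Pgam* ASO and 0 were lower. Among all 14936 tested genes 8.03% were called higher and 9.15% lower, and among the 7975 tested genes at least as abundant as the least abundant tested member these shares were 12.2% and 10.5%. At an unadjusted p under 0.05, 36 members were higher and 0 lower, against 2564 (17.2%) and 2650 (17.7%) of all tested genes. DESeq2 called 24 members higher and 0 lower, against 1554 and 1659 of all genes, and limma-voom 18 and 0, against 1193 and 1336. The median log2 fold change was 0.26 over the 77 members and -0.0061 over all tested genes. The fitted value was above 0 for 74 of the 77 with TMM scaling and with RLE size factors, and for 71 when libraries were scaled by their totals alone, where *Mrpl9*, *Mrpl32* and *Mrpl48* changed sign. The changes were small. The 19 that rose had log2 fold changes between 0.33 and 0.63, or 25.7% to 54.3% more, with adjusted p between 0.0193 and 0.0499, and 0 members passed at 0.01. When replicate number was added to the fit as a block, edgeR called only 2 of the 19 and no other member. Calls over all genes then went from 2565 to 1235.

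The members' groups did not overlap, with every library labelled *Pgam* ASO higher, for 36 of the 77, and with every such library lower for 1, *Mrpl45*. These shares were 19.6% and 19.8% of all tested genes, and 27.9% and 19.9% of those at least as abundant as the least abundant tested member. The calls depended on single libraries. Without replicate 1 of the scrambled ASO label, edgeR called 0 members (29 higher at an unadjusted p under 0.05), with replicate 2 left out 2 (*Mrps10* and *Mrps23*), and with replicate 3 left out 29. With replicate 1 or 2 labelled *Pgam* ASO left out edgeR called 0 in either case (23 and 27 higher at an unadjusted p under 0.05), and with replicate 3 left out 27. All 19 called with 6 libraries were among those called without replicate 3 of either label. Calls over all genes moved in the same way, from 2565 to 620, 1256, 3484, 871, 391 and 3319 in this order of libraries. The median log2 fold change of the members stayed between 0.18 and 0.35 over these 6 fits.

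**Figure D1:**
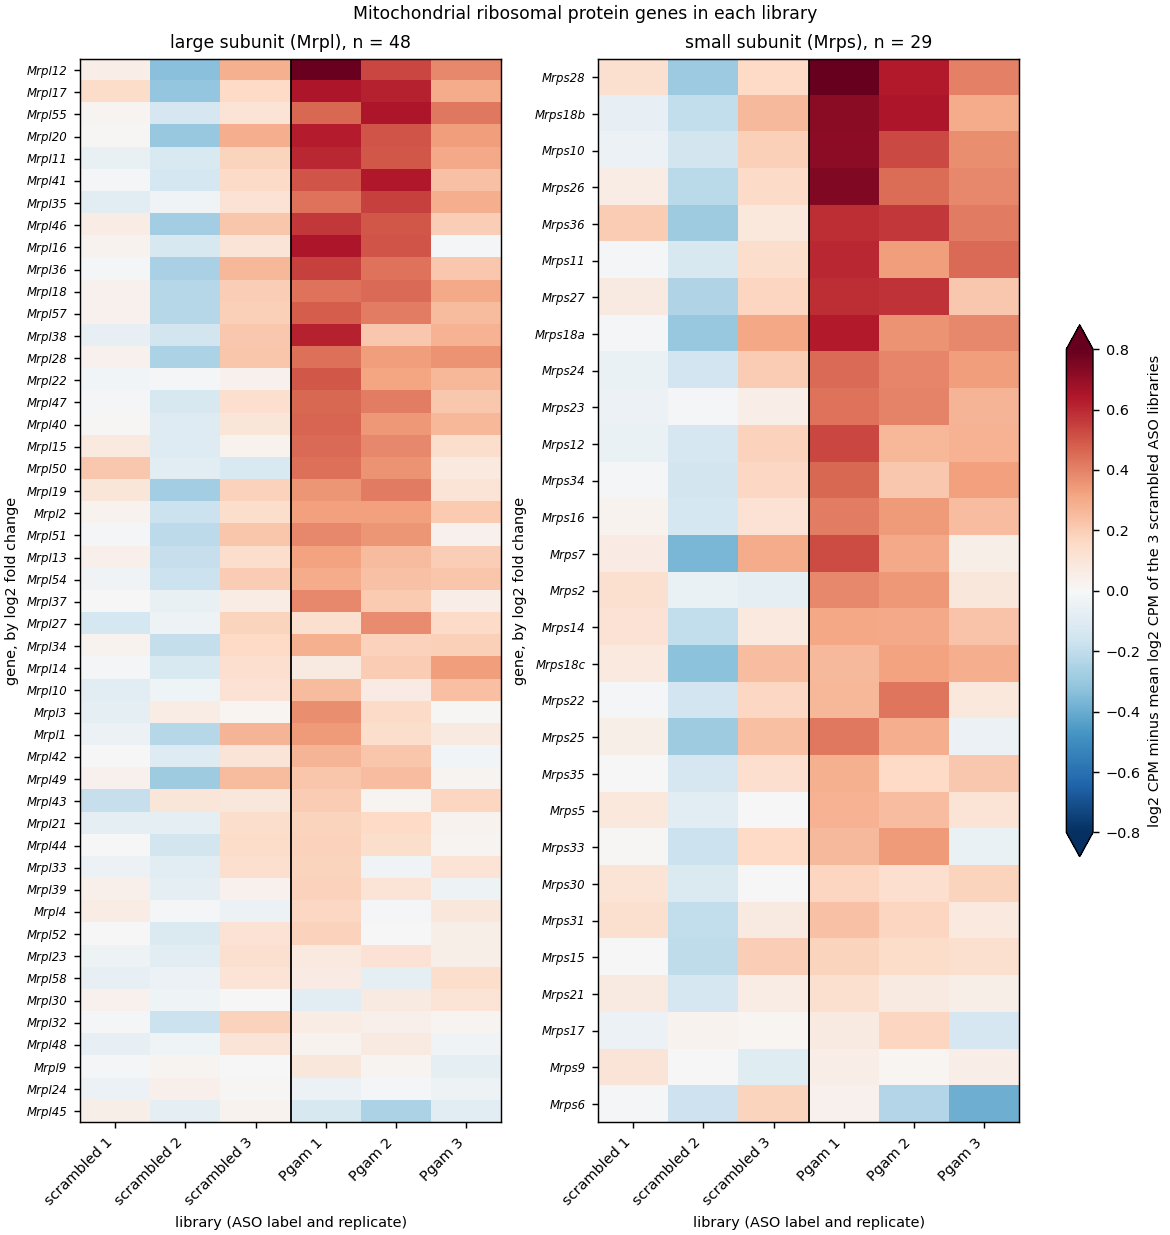
Each row is 1 of the 77 tested members, ordered by its fitted log2 fold change, and each column 1 library. Colour gives log2 CPM minus the mean log2 CPM of the 3 libraries labelled scrambled ASO. Most genes are high in replicates 1 and 2 labelled *Pgam* ASO, and replicate 2 labelled scrambled ASO is low across both subunits.

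The members deviated together within each label as well as between labels. Relative to the mean log2 CPM of the scrambled ASO libraries, the median over the 77 members was 0.0031, -0.14 and 0.14 in its own replicates 1, 2 and 3, and 0.35, 0.30 and 0.18 in *Pgam* ASO replicates 1, 2 and 3. Only 5 of 77 members were above that mean in replicate 2 labelled scrambled ASO, and 72 of 77 in replicate 3. Under the *Pgam* ASO label the numbers were 74, 71 and 66. Summed over all members, the level was 3047, 2748 and 3285 CPM under the scrambled ASO label (replicates 1, 2 and 3) and 3807, 3593 and 3343 CPM under the *Pgam* ASO label. The groups did not overlap, but replicate 3 labelled *Pgam* ASO was only 1.02 times replicate 3 labelled scrambled ASO. The highest scrambled ASO library was 1.20 times the lowest, about as much as the 1.18 times between the group means. The large subunit summed to 2013, 1841 and 2184 CPM and 2489, 2360.1 and 2205 CPM, and the small subunit to 1034, 907 and 1101 CPM and 1318, 1233 and 1137 CPM, in the same order of libraries. As a share of all counts the members took between 0.282% and 0.327% under the scrambled ASO label and between 0.336% and 0.369% under the *Pgam* ASO label. With subunits taken by symbol, the ratio of large to small subunit counts was 1.95, 2.03 and 1.98 in the first group. It was 1.89, 1.91 and 1.94 in the second, without overlap. By symbol the small subunit includes *Mrps18a* and *Mrps30*, for large subunit proteins, and *Mrps36*, for no ribosomal protein. The lack of overlap is thus one of symbols, and the ratio with these genes placed by role is not given.

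**Figure D2:**
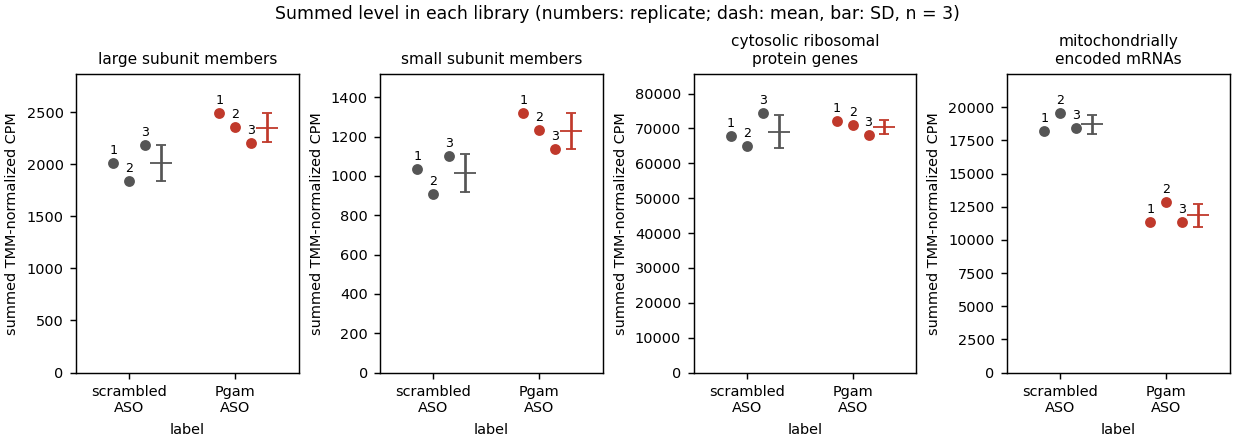
Points are the summed TMM-normalized CPM of each library for 4 lists, numbered by replicate, with the mean as a dash and the SD as a bar (n = 3). Both subunits are higher in every library labelled *Pgam* ASO by a narrow margin, cytosolic ribosomal protein genes overlap, and mitochondrially encoded mRNAs are lower.

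Since 74 of the 77 fold changes lay on the same side of 0, the members' promoters were examined for known motifs. RefSeq start sites on GRCm38.p6 were found for 69 of the 78 members, with 75 promoters of 300 bases, 250 before the start and 50 after it. Motifs were searched on both strands. GCGCANGCG, the core bound by NRF1, was in 21.3% of the members' promoters, against 6.25% of all 32851 promoters and 8.58% of the 21263 of protein-coding genes. CCGGAAG, the core of ETS factors such as GABP, was in 34.7%, against 8.86% and 11.6%. AAGATGGCG, the core of YY1, was in 10.7%, against 1.40% and 1.83%. For the E-box CACGTG the shares were 9.33%, 7.15% and 7.84%, but 3 of the 7 promoters that hold it are overlapping ones of *Mrpl2*, and by gene the share is 5 of 69, or 7.25%. The shares were for the GC box GGGCGG 52.0%, 35.7% and 46.2%, and for the TATA box TATAAA 6.67%, 13.6% and 12.6%. Of the 16 tested members with the NRF1 core 4 rose, and of the 52 tested members with a promoter but without it 14 rose, with median log2 fold changes of 0.15 and 0.27. For the ETS core 7 of 25 and 11 of 43 rose, with medians of 0.26 and 0.22. For the YY1 core 4 of 8 and 14 of 60 rose, with medians of 0.41 and 0.22. For the E-box 1 of 5 and 17 of 63 rose, with medians of 0.28 and 0.22. The GC box gave 10 of 34 and 8 of 34, with medians of 0.27 and 0.22. The TATA box gave 1 of 5 and 17 of 63, with medians of 0.38 and 0.26. Among all tested genes 8.03% rose. Whether members with and without a motif differ was not tested, and some of these groups are small. The promoters shown are those of members that rose with the NRF1 core (*Mrpl12*, *Mrpl17*, *Mrps18b*, *Mrps26*) or the YY1 core (*Mrpl35* and *Mrps11*, 2 of 4, the others being *Mrps24* and *Mrps27*), of *Mrpl45*, which has the NRF1 core and did not rise, and of *Mrps10*, which rose and has none of these cores. They are given 5′ to 3′ on the strand of the gene, with NRF1, ETS, YY1 and E-box matches in capitals.
Mrpl12, chr11:120484387-120484686, plus strand: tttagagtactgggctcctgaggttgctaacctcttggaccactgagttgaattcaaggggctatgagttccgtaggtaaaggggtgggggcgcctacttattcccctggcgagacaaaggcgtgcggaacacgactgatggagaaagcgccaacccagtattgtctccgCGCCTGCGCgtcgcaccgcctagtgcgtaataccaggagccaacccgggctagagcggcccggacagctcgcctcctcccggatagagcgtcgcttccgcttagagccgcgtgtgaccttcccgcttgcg
Mrpl17, chr7:105811038-105811337, minus strand: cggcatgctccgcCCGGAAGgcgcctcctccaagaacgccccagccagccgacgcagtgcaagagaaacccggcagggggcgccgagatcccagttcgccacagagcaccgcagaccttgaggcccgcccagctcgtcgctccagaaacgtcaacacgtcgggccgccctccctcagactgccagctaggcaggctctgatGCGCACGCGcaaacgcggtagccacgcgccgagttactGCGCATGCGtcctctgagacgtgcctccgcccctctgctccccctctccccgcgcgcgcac
Mrps18b, chr17:35916391-35916690, minus strand: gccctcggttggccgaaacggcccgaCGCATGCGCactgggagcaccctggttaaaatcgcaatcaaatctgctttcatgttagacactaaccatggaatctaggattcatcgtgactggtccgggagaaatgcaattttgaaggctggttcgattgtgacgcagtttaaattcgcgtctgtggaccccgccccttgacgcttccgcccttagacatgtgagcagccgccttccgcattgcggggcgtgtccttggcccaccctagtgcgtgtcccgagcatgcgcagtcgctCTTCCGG
Mrps26, chr2:130563507-130563806, plus strand: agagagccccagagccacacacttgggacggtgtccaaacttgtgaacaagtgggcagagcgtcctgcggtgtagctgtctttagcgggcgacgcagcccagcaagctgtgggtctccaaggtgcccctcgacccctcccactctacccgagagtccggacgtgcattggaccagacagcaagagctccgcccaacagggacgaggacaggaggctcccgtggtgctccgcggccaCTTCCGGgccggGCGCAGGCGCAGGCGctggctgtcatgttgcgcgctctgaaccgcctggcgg
Mrpl35, chr6:71823735-71824034, minus strand: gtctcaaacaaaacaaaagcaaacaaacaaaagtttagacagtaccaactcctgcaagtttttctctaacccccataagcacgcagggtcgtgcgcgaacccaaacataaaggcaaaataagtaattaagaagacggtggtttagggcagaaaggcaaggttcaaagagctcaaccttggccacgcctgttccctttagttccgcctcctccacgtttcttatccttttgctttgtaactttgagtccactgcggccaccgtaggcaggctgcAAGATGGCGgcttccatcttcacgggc
Mrps11, chr7:78782881-78783180, plus strand: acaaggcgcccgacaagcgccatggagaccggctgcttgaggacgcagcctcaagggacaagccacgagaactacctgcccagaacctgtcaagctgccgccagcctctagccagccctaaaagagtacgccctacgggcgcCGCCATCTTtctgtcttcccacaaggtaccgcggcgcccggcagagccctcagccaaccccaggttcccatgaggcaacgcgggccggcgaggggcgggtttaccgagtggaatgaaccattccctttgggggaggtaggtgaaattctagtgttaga
Mrpl45, chr11:97315466-97315765, plus strand: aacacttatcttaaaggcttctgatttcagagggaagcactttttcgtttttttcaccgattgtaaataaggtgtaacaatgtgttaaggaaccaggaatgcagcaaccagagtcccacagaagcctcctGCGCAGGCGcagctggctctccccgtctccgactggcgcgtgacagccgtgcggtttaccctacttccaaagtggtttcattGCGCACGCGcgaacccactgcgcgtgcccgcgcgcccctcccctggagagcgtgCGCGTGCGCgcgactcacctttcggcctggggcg
Mrps10, chr17:47368947-47369246, plus strand: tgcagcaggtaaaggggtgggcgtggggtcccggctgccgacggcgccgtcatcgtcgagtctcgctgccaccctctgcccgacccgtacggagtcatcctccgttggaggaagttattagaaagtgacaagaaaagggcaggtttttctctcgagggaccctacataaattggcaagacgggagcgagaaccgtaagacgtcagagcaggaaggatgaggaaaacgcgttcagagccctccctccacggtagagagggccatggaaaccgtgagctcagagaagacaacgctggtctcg

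A match describes the letters of the sequence and not a bound site. With both strands counted, the NRF1 core occurs 3 times in *Mrpl32* and *Mrpl45* and 2 times in *Mrpl9*, *Mrpl17*, *Mrpl30*, *Mrpl39* and *Mrps26*. The copies in *Mrpl9*, *Mrpl39* and *Mrps26* overlap, as do 2 of those in *Mrpl32*, so the first 3 hold it at a single place, in *Mrps26* next to an ETS core. Of these 7, *Mrpl17* and *Mrps26* rose (0.51 and 0.52), and the other 5 did not pass, with log2 fold changes from -0.15 to 0.086. A start site of another protein-coding gene lies within 1000 bp in the opposite direction for 24 members. In 1 case both genes are members, with *Mrpl46* and *Mrps11* starting 42 bp apart on chromosome 7. *Mrps11* was at 23.3, 21.5 and 26.0 CPM under the scrambled ASO label and 35.7, 29.6 and 32.1 CPM under the *Pgam* ASO label and rose (log2 fold change 0.46, SE 0.12, edgeR adjusted p = 0.0272). *Mrpl46* was at 26.8, 21.2 and 29.9 CPM under the scrambled ASO label and 38.1, 36.3 and 29.5 CPM under the *Pgam* ASO label, and its groups overlapped (log2 fold change 0.42, SE 0.15, edgeR adjusted p = 0.0743), though it passed in 2 of the 6 fits with a library left out (lowest adjusted p 0.0337).

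In the large subunit by symbol, 9 of 48 tested members (18.8%) rose and 0 fell by edgeR. Of all tested genes 8.03% rose, and 12.2% of those at least as abundant as the least abundant tested member. At an unadjusted p under 0.05, 20 were higher and 0 lower, and DESeq2 called 13 higher and limma-voom 9. Without replicate 3 of either label 16 rose, and without any 1 of the other 4 libraries edgeR called 0. The median log2 fold change was 0.23. The highest was that of *Mrpl12* (ENSMUSG00000039640, chromosome 11 from 120484613 to 120489065 in GENCODE M21 on GRCm38), which encodes the homolog of bacterial L7/L12, the mobile stalk that recruits translation factors. It was at 76.6, 58.4 and 89.9 CPM under the scrambled ASO label (replicates 1, 2 and 3) and 128, 107 and 96.3 CPM under the *Pgam* ASO label, and every library of the second label was above the first (log2 fold change 0.56, SE 0.16, edgeR adjusted p = 0.0410). *Mrpl12* shares 15.9% of its stretches with other genes, so its count carries that uncertainty. *Mrpl11* (ENSMUSG00000024902, chromosome 19 from 4962147 to 4966999), whose protein forms the base of the stalk, was at 23.1, 22.0 and 27.2 CPM under the scrambled ASO label and 36.5, 33.9 and 29.6 CPM under the *Pgam* ASO label, without overlap, and rose (log2 fold change 0.47, SE 0.12, edgeR adjusted p = 0.0307). *Mrpl10*, whose protein anchors the stalk, was at 52.2, 54.2 and 60.2 CPM under the scrambled ASO label and 66.1, 58.0 and 65.4 CPM under the *Pgam* ASO label and overlapped (log2 fold change 0.19, SE 0.095, edgeR adjusted p = 0.189). Of the 3 stalk genes 2 thus rose, and together they summed to 152, 135 and 177 CPM and 230.4, 199 and 191 CPM under the 2 labels.

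The other members among the 5 highest of the large subunit were *Mrpl17*, *Mrpl55* and *Mrpl20*. *Mrpl17* (ENSMUSG00000030879, chromosome 7 from 105803206 to 105811099), the homolog of bacterial L17, was at 48.3, 35.2 and 48.6 CPM under the scrambled ASO label and 68.1, 66.7 and 53.4 CPM under the *Pgam* ASO label (log2 fold change 0.51, SE 0.14, edgeR adjusted p = 0.0363). *Mrpl55* (ENSMUSG00000036860, chromosome 11 from 59202486 to 59206134), for a large subunit protein, was at 15.3, 13.7 and 16.2 CPM under the scrambled ASO label and 20.7, 23.5 and 20.1 CPM under the *Pgam* ASO label (log2 fold change 0.51, SE 0.13, edgeR adjusted p = 0.0251). *Mrpl20* (ENSMUSG00000029066, chromosome 4 from 155802878 to 155809975), the homolog of bacterial L20, which binds rRNA early in assembly, was at 44.2, 35.5 and 53.6 CPM under the scrambled ASO label and 67.6, 62.2 and 55.1 CPM under the *Pgam* ASO label (log2 fold change 0.47, SE 0.14, edgeR adjusted p = 0.0477). In none of these 3 did the groups overlap, and in each replicate 2 was the lowest of the scrambled ASO libraries. The narrowest gap was in *Mrpl20*, where replicate 3 of each label differed least. *Mrpl17* and *Mrpl55* share 0.157% and 0% of their stretches with other genes.

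At the other end, the 3 lowest of the large subunit were *Mrpl9*, *Mrpl24* and *Mrpl45*. *Mrpl45* (ENSMUSG00000018882, chromosome 11 from 97315716 to 97329920), whose protein lies at the exit of the peptide tunnel and tethers the ribosome to the inner membrane, was at 102, 93.4 and 101 CPM under the scrambled ASO label (replicates 1, 2 and 3) and 90.4, 83.0 and 92.7 CPM under the *Pgam* ASO label. Its groups did not overlap and it was lower under the *Pgam* ASO label, yet it did not pass the test (log2 fold change -0.15, SE 0.083, edgeR adjusted p = 0.216). *Mrpl24* (ENSMUSG00000019710, chromosome 3 from 87919506 to 87923672), also beside the tunnel, was at 58.7, 62.4 and 61.1 CPM under the scrambled ASO label and 58.8, 60.2 and 59.1 CPM under the *Pgam* ASO label and overlapped (log2 fold change -0.033, SE 0.080, edgeR adjusted p = 0.799). *Mrpl9* (ENSMUSG00000028140, chromosome 3 from 94443318 to 94451130), the homolog of bacterial L9, was at 61.6, 63.2 and 62.1 CPM under the scrambled ASO label and 66.4, 63.1 and 59.1 CPM under the *Pgam* ASO label and overlapped (log2 fold change 0.012, SE 0.083, edgeR adjusted p = 0.934). The 5 genes of the exit tunnel had a median log2 fold change of 0.077 and summed to 235, 227 and 243 CPM and 239.9, 232 and 235 CPM under the 2 labels. By edgeR 0 of the 5 passed the test, with 2 at an unadjusted p under 0.05, both higher (*Mrpl22*, 0.36, and *Mrpl47*, 0.36), and DESeq2 called 1 and limma-voom 0. Without replicate 3 labelled *Pgam* ASO edgeR called these 2 higher (adjusted p 0.0450 and 0.0489). *Mrpl58* (ENSMUSG00000018858, chromosome 11 from 115403752 to 115412674), which encodes a peptidyl-tRNA hydrolase that became part of the ribosome, was at 34.3, 34.6 and 38.7 CPM under the scrambled ASO label and 37.4, 34.1 and 39.5 CPM under the *Pgam* ASO label and overlapped (log2 fold change 0.045, SE 0.10, edgeR adjusted p = 0.783).

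A single member could not be tested. *Mrpl53* (ENSMUSG00000030037, chromosome 6 from 83109040 to 83109939) had a count of 0 in every library. It shares 84.4% of its stretches with other genes, mainly the protein-coding *Gm42688*, which had 124 counts over the 6 libraries, so a count of 0 does not show that *Mrpl53* is not transcribed.

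In the small subunit by symbol, 10 of 29 members (34.5%) rose and 0 fell by edgeR, against 8.03% and 9.15% of all tested genes. The 29 include *Mrps18a*, *Mrps30* and *Mrps36*, whose proteins are not in the small subunit, and *Mrps36* is among those that rose. At an unadjusted p under 0.05, 16 were higher and 0 lower, and DESeq2 called 11 higher and limma-voom 9. Without replicate 3 of the scrambled and the *Pgam* ASO label 13 and 11 rose, without replicate 2 labelled scrambled ASO 2, and without any 1 of the other 3 libraries edgeR called 0. The median log2 fold change was 0.28. Whether the subunits differ was not tested. *Mrps28* (ENSMUSG00000040269, chromosome 3 from 8802146 to 8923918) had the highest fold change of all members, at 15.9, 11.9 and 16.2 CPM under the scrambled ASO label (replicates 1, 2 and 3) and 26.1, 22.6 and 19.2 CPM under the *Pgam* ASO label, without overlap (log2 fold change 0.63, SE 0.16, edgeR adjusted p = 0.0289). It shares no stretch with another gene. *Mrps10* (ENSMUSG00000034729, chromosome 17 from 47368887 to 47381417), the homolog of bacterial S10 in the head of the subunit, was at 35.6, 33.2 and 41.9 CPM under the scrambled ASO label and 60.4, 53.0 and 47.5 CPM under the *Pgam* ASO label, without overlap, and had the smallest adjusted p of the members (log2 fold change 0.54, SE 0.12, edgeR adjusted p = 0.0193). *Mrps26* (ENSMUSG00000037740, chromosome 2 from 130563742 to 130568695), for a mitochondria-specific protein, was at 47.7, 39.4 and 50.8 CPM under the scrambled ASO label and 76.3, 62.2 and 59.7 CPM under the *Pgam* ASO label, also without overlap (log2 fold change 0.52, SE 0.13, edgeR adjusted p = 0.0233). In all 3 genes replicate 1 was the highest of the *Pgam* ASO libraries. The remaining genes of the 5 highest, *Mrps18b* and *Mrps36*, have unusual roles and are described next.

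Relatives of bacterial S18 are encoded by 3 genes. *Mrps18c* (ENSMUSG00000016833, chromosome 5 from 100798627 to 100804471) encodes the one at the bacterial position, *Mrps18b* (ENSMUSG00000024436, chromosome 17 from 35910379 to 35916389) a protein elsewhere in the small subunit, and *Mrps18a* (ENSMUSG00000023967, chromosome 17 from 46110986 to 46128910) a protein that sits in the large subunit despite its name. *Mrps18b* was at 19.2, 17.6 and 24.2 CPM under the scrambled ASO label and 33.3, 31.5 and 24.7 CPM under the *Pgam* ASO label, with replicates 3 of both labels nearly equal, and rose (log2 fold change 0.55, SE 0.15, edgeR adjusted p = 0.0358). *Mrps18a* was at 30.2, 24.6 and 37.5 CPM under the scrambled ASO label and 47.1, 38.9 and 39.6 CPM under the *Pgam* ASO label, without overlap, and did not pass (log2 fold change 0.44, SE 0.15, edgeR adjusted p = 0.0657). DESeq2 called it higher (adjusted p 0.0388), as did edgeR with no filter on low counts (0.00304) and without replicate 3 labelled scrambled ASO (0.0137). *Mrps18c* was at 22.2, 16.8 and 24.97 CPM under the scrambled ASO label and 25.2, 26.3 and 25.8 CPM under the *Pgam* ASO label, with replicates 3 labelled scrambled ASO and 1 labelled *Pgam* ASO nearly equal, and did not pass (log2 fold change 0.27, SE 0.14, edgeR adjusted p = 0.207). Shared stretches made up 31.6% of *Mrps18b*, 0.163% of *Mrps18a* and 34.5% of *Mrps18c*. *Mrps30* (ENSMUSG00000021731, chromosome 13 from 118378381 to 118387252) also encodes a large subunit protein, and was at 35.7, 30.6 and 33.1 CPM under the scrambled ASO label and 37.2, 36.3 and 37.5 CPM under the *Pgam* ASO label, without overlap (log2 fold change 0.16, SE 0.097, edgeR adjusted p = 0.275). *Mrps36* (ENSMUSG00000061474, chromosome 13 from 100735955 to 100744659) encodes a subunit of α-ketoglutarate dehydrogenase, a tricarboxylic acid cycle enzyme, and no ribosomal protein. It was at 24.7, 17.6 and 22.7 CPM under the scrambled ASO label and 32.3, 31.8 and 28.6 CPM under the *Pgam* ASO label, without overlap, and rose (log2 fold change 0.51, SE 0.14, edgeR adjusted p = 0.0320), with 21.02% of its stretches shared.

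The 3 lowest of the small subunit were *Mrps17*, *Mrps9* and *Mrps6*, all homologs of bacterial proteins. *Mrps6* (ENSMUSG00000039680, chromosome 16 from 92058270 to 92112227) was at 40.6, 36.5 and 46.4 CPM under the scrambled ASO label and 41.9, 34.8 and 31.2 CPM under the *Pgam* ASO label, and its groups overlapped (log2 fold change -0.19, SE 0.13, edgeR adjusted p = 0.325). *Mrps9* (ENSMUSG00000060679, chromosome 1 from 42851233 to 42905683) was at 61.3, 57.1 and 53.4 CPM under the scrambled ASO label and 59.4, 57.8 and 59.5 CPM under the *Pgam* ASO label, within the range of the scrambled ASO libraries (log2 fold change 0.039, SE 0.087, edgeR adjusted p = 0.779). *Mrps17* (ENSMUSG00000034211, chromosome 5 from 129715497 to 129722556) was at 45.5, 48.0 and 47.6 CPM under the scrambled ASO label and 49.5, 53.1 and 42.8 CPM under the *Pgam* ASO label, with the *Pgam* ASO libraries on both sides of the others (log2 fold change 0.043, SE 0.10, edgeR adjusted p = 0.791).

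**Figure D3:**
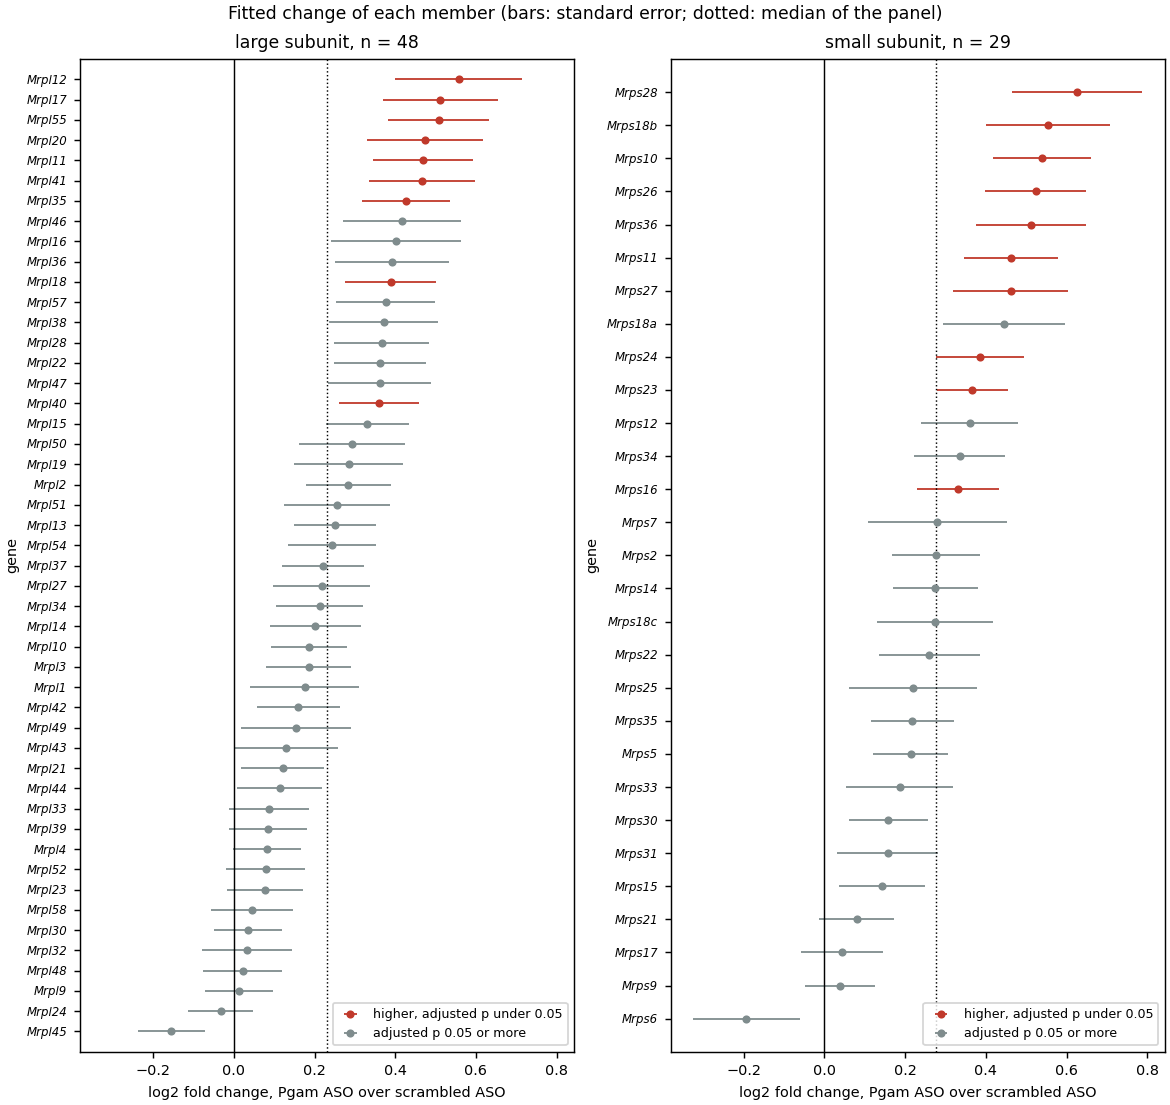
Points are the fitted log2 fold changes of the 77 tested members with their standard errors, split by subunit and coloured by call. The 19 called members lie between 0.33 and 0.63, and 74 of 77 points lie above 0 (71 when libraries are scaled by their totals alone).

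Members were also grouped by descent, with 71 of the 77 tested placed in a class. Of 44 tested members with a bacterial counterpart 10 rose, with a median log2 fold change of 0.27, and of 27 tested mitochondria-specific members 5 rose, with a median of 0.22. Within the large subunit these were 6 of 29 and 2 of 18, and within the small subunit 4 of 15 and 3 of 9. The classes leave out *Mrps18a* and *Mrps30*, which did not pass, and *Mrpl55*, *Mrps18b*, *Mrps28* and *Mrps36*, which rose, so they hold 15 of the 19 members that rose. The summed level of the conserved members was 1894, 1716 and 2041 CPM under the scrambled ASO label (replicates 1, 2 and 3) and 2357, 2233 and 2088 CPM under the *Pgam* ASO label, without overlap, and that of the mitochondria-specific ones 1012, 916 and 1094 CPM and 1253, 1175 and 1085 CPM, where replicates 3 of the 2 labels made the groups overlap. The difference between the classes was not tested. Reads from shared sequence make some counts uncertain. Of the 28 tested members that share at least 10% of their stretches 7 rose, with a median of 0.26, and of the 49 below 10% 12 rose, with a median of 0.26. When each member's counts were summed with those of the genes that share at least 10% of its stretches, 20 were called higher, 18 of them also called alone. The one that lost its call was *Mrps24*, which shares 16.4% mainly with *Urgcp* and went from 0.38 (adjusted p 0.0385) to 0.072 (adjusted p 0.591). *Mrps34*, which shares 73.8% mainly with *Mapk8ip3*, and *Mrps25*, which shares 68.9% with *Nr2c2*, then had log2 fold changes of -0.094 and -0.16, against 0.34 and 0.22 alone.

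Levels between members were compared per length, as CPM per kilobase of the mean protein-coding transcript. Under the scrambled ASO label the median over 77 members was 33.4 CPM per kilobase and the range 4.40 to 127, with 54 members within a factor of 2 of the median. The highest was *Mrpl52* at 127 ± 10.3 CPM per kilobase (SD, n = 3), then *Mrps21* at 116 ± 9.01 CPM per kilobase (SD, n = 3) and *Mrpl33* at 104 ± 8.89 CPM per kilobase (SD, n = 3), and each was within the summed SDs of the next. *Mrps15* followed *Mrps21* in the small subunit at 58.3 ± 8.003 CPM per kilobase (SD, n = 3), a gap beyond their summed SDs. The lowest was *Mrps25* at 4.40 ± 0.783 CPM per kilobase (SD, n = 3), next to *Mrpl47* at 4.66 ± 0.425 CPM per kilobase (SD, n = 3), within their SDs of each other, and they share 68.9% and 25.8% of their stretches with other genes, so their levels are uncertain. *Mrpl35* at 7.14 ± 0.535 CPM per kilobase (SD, n = 3) and *Mrps30* at 9.98 ± 0.769 CPM per kilobase (SD, n = 3) were the second lowest of the large and the small subunit. Across the 77 genes the log2 level under 1 label followed that under the other (Pearson r = 0.986, Spearman rho = 0.981), and genes are not independent replicates. Length counted as all merged exons changed the order (r = 0.668 with the log2 level by transcript length). By that length *Mrpl34* was highest at 62.0 CPM per kilobase and *Mrpl47* lowest at 3.55, and *Mrpl52* was at 44.1.

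**Figure D4:**
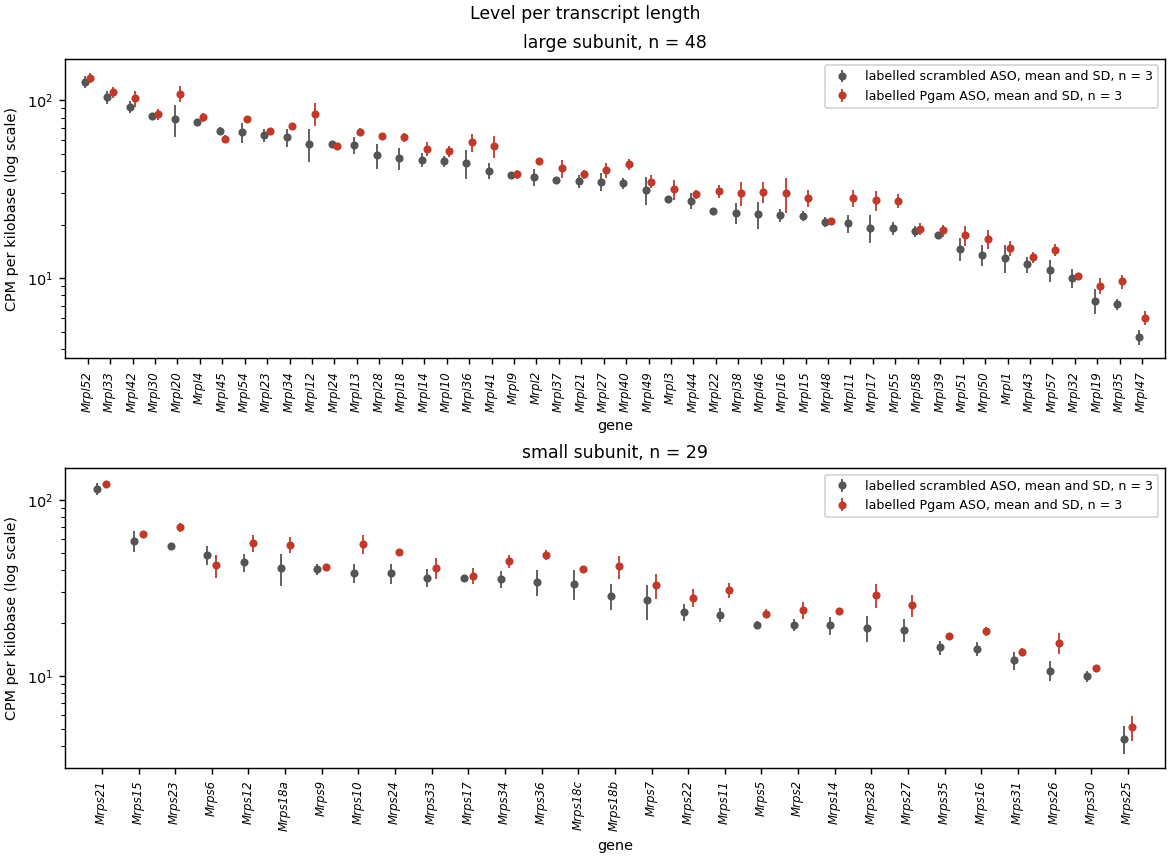
Points are the mean CPM per kilobase of transcript on a log scale under each label, with the SD as a bar (n = 3), for the 77 tested members in order of the scrambled ASO level. The members span 4.40 to 127 CPM per kilobase under the scrambled ASO label, and the labels differ by far less than the genes do.

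Other genes of mitochondrial translation were described by lists. The 5 further mitoribosome proteins whose symbols do not start with Mrp had a median log2 fold change of 0.21. By edgeR 0 of the 5 passed, with 2 higher at an unadjusted p under 0.05, and DESeq2 called 1 and limma-voom 0. Without replicate 3 labelled scrambled ASO *Chchd1* was called higher (adjusted p 0.0112), and without replicate 3 labelled *Pgam* ASO *Ptcd3* (0.0336). *Chchd1* was at 36.8, 29.5 and 45.6 CPM under the scrambled ASO label and 54.5, 51.2 and 46.6 CPM under the *Pgam* ASO label, without overlap (log2 fold change 0.44, SE 0.15, edgeR adjusted p = 0.0600). *Ptcd3*, *Gadd45gip1*, *Aurkaip1* and *Dap3* had log2 fold changes of 0.23, 0.21, 0.15 and 0.057, with overlapping groups. Of 26 ribosome assembly factors 1 rose (3.85%, against 8.03% of all tested genes) and 0 fell, with 6 higher and 0 lower at an unadjusted p under 0.05 (23.1%, against 17.2% higher among all genes) and a median of 0.13. The one that rose was *Rcc1l*, at 16.5, 14.7 and 19.1 CPM under the scrambled ASO label and 31.9, 26.1 and 18.7 CPM under the *Pgam* ASO label, although its groups overlapped (log2 fold change 0.61, SE 0.19, edgeR adjusted p = 0.0499). DESeq2 called 2 of the 26 and limma-voom 0. Without replicate 3 labelled scrambled ASO 5 rose, without replicate 3 labelled *Pgam* ASO 2, and without any 1 of the other 4 libraries 0 (2 to 5 at an unadjusted p under 0.05). *Rcc1l* passed only without replicate 3 of either label in the fits with a library left out (adjusted p up to 0.173 in the others). *Mrm3*, for an rRNA methyltransferase, followed at 0.59, and the lowest were *Mterf4* at -0.23 and *Mettl17* at -0.16. Of 13 matched translation factors 0 passed by edgeR, with 3 higher at an unadjusted p under 0.05 (17.2% of all tested genes were higher at that threshold). DESeq2 called 1 and limma-voom 0, and the median was 0.036. Without replicate 3 labelled scrambled ASO 2 of the 13 rose, and without replicate 3 labelled *Pgam* ASO 3. The elongation factors *Tsfm* and *Gfm1* were highest at 0.43 and 0.35, and *Mtif2* and *Guf1* lowest at -0.090 and -0.074.

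Of 17 mitochondrial tRNA synthetases, which charge the tRNAs that these ribosomes use, 3 rose (17.6%, against 8.03% of all tested genes) and 0 fell by edgeR. At an unadjusted p under 0.05, 7 were higher and 0 lower, against 2564 and 2650 of all 14936 tested genes, and the median was 0.18. Without replicate 3 labelled *Pgam* ASO 5 rose, without replicate 2 labelled scrambled ASO 1, and without replicate 1 of either label or replicate 2 labelled *Pgam* ASO edgeR called 0 (4 to 6 at an unadjusted p under 0.05). *Yars2* and *Ears2* were the highest (log2 fold change 0.52, SE 0.15, edgeR adjusted p = 0.0400, and log2 fold change 0.49, SE 0.14, edgeR adjusted p = 0.0368), and *Mars2* also rose (log2 fold change 0.49, SE 0.11, edgeR adjusted p = 0.0207). In the 6 fits with a library left out *Yars2* passed only without replicate 3 of either label, and *Ears2* only without replicate 3 labelled scrambled ASO, with adjusted p up to 0.126 and 0.137 in the others. *Mars2* missed the threshold without replicate 1 labelled scrambled ASO or replicates 1 or 2 labelled *Pgam* ASO (adjusted p 0.0849, 0.0725 and 0.104). The lowest were *Pars2* at -0.20 and *Wars2* at -0.19. Of 84 tested genes with symbols of cytosolic ribosomal proteins, 1 rose (*Rpl22l1*, 1.19%, against 8.03% of all tested genes) and 2 fell by edgeR. At an unadjusted p under 0.05, 8 were higher and 4 lower. Without replicate 3 labelled scrambled ASO 11 rose, and without replicate 3 labelled *Pgam* ASO 3. In the other 4 such fits 0 rose, and the adjusted p of *Rpl22l1* was 0.0676 to 0.115. The median was 0.058. The summed level of these genes was 67885, 65008 and 74329 CPM under the scrambled ASO label (replicates 1, 2 and 3) and 72212, 70986 and 68209.6 CPM under the *Pgam* ASO label, which overlapped between labels. Their highest fold changes, *Rpl39l* at 0.89 and *Rpl24* at 0.73, came from genes with means of 1.21 and 2.92 CPM under the *Pgam* ASO label, and their lowest were *Rps27rt* at -1.09 and *Rpl30* at -0.58. These 2 fell with 6 libraries, and the calls were lost without replicate 1 labelled scrambled ASO (adjusted p 0.0552 and 0.104) or replicate 2 labelled *Pgam* ASO (0.0637 and 0.142), and for *Rpl30* also without replicate 3 of either label (0.0754 and 0.0833).

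The mRNAs that mitochondrial ribosomes translate were mostly lower under the *Pgam* ASO label. Of 12 tested mitochondrially encoded mRNAs 9 fell and 0 rose by edgeR, with 10 lower and 0 higher at an unadjusted p under 0.05, DESeq2 and limma-voom each calling 9 lower and 0 higher, and the median log2 fold change was -0.67. With a library left out, 7 or 8 of the 12 fell. Their summed level was 18178, 19535 and 18439 CPM under the scrambled ASO label (replicates 1, 2 and 3) and 11358, 12831 and 11331 CPM under the *Pgam* ASO label, without overlap. *mt-Cytb*, for cytochrome b of complex III, was at 2569, 2722 and 2618 CPM under the scrambled ASO label and 1148, 1238 and 968 CPM under the *Pgam* ASO label and fell most (log2 fold change -1.24, SE 0.098, edgeR adjusted p = 2.52e-04), and all 6 fits with a library left out called it. *mt-Co3*, for a subunit of cytochrome c oxidase, fell too (log2 fold change -0.92, SE 0.23, edgeR adjusted p = 0.0340), but not without replicate 2 labelled scrambled ASO or without any 1 of the libraries labelled *Pgam* ASO (adjusted p 0.0514, 0.105, 0.105 and 0.0727). *mt-Nd1*, for a subunit of complex I, was at 2164, 2116 and 2269 CPM under the scrambled ASO label and 2178, 2406 and 2009.6 CPM under the *Pgam* ASO label and overlapped (log2 fold change 0.0099, SE 0.086, edgeR adjusted p = 0.949, and -0.026 when libraries were scaled by their totals alone), and *mt-Nd3* was at -0.094. *mt-Cytb* and *mt-Nd1* share 6.55% and 0% of their stretches with other genes, whereas *mt-Co3* and *mt-Nd3* share 99.9% and 98.1% with nuclear pseudogenes, so their counts are uncertain. Of the 9 that fell, 7 share at least 10%, among them *mt-Co1*, the most abundant (63.9%), *mt-Nd4* (62.8%), *mt-Co2* (100%) and *mt-Atp6* (99.5%). *mt-Atp8* was not tested for low counts. The rRNAs of the mitochondrial ribosome did not follow these mRNAs. *mt-Rnr1*, the rRNA of the small subunit, was at 343, 382 and 316 CPM under the scrambled ASO label and 629.5, 826 and 809 CPM under the *Pgam* ASO label and rose (log2 fold change 1.12, SE 0.12, edgeR adjusted p = 7.68e-04), also in all 6 fits with a library left out. *mt-Rnr2*, that of the large subunit, was at 683, 669.8 and 622 CPM under the scrambled ASO label and 689, 914 and 849 CPM under the *Pgam* ASO label, without overlap (log2 fold change 0.31, SE 0.11, edgeR adjusted p = 0.0683), and passed without replicate 1 labelled *Pgam* ASO (adjusted p 0.0337). DESeq2 called both rRNAs higher, and limma-voom called 1. The labels give polyA RNA as the molecule, and how far rRNA levels depend on that selection was not tested. Counts of mitochondrially encoded mRNAs per count of a member were 5.97, 7.11 and 5.61 under the scrambled ASO label and 2.98, 3.57 and 3.39 under the *Pgam* ASO label.

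**Figure D5:**
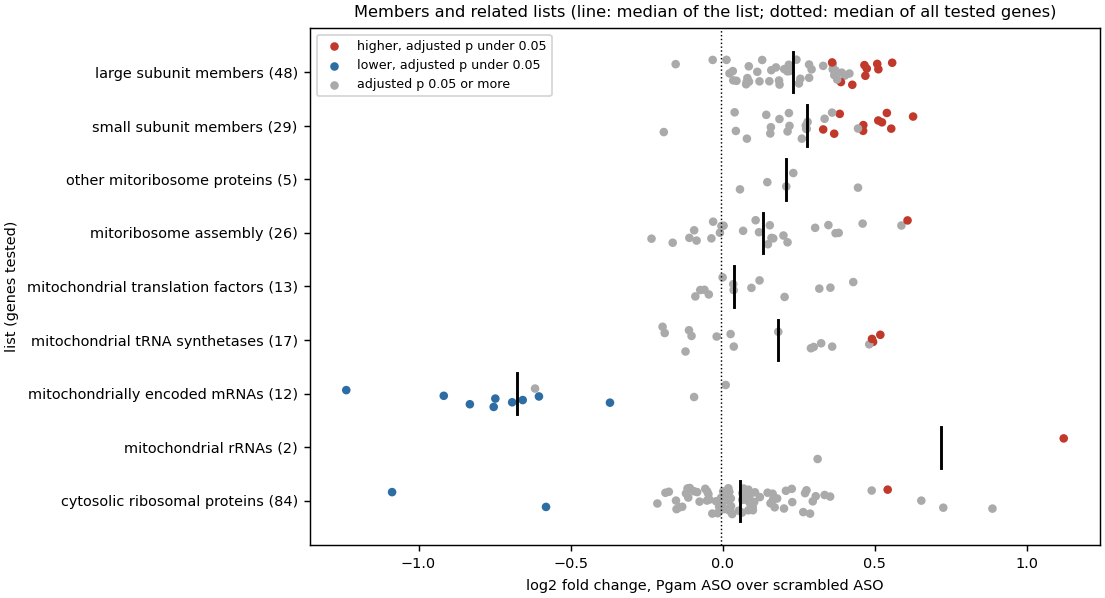
Points are the fitted log2 fold changes of tested genes in each list, coloured by call, with the list's median as a line and the median of all tested genes, -0.0061, as a dotted line. The medians of both subunits lie at 0.23 and 0.28, and that of the mitochondrially encoded mRNAs at -0.67.

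Regulators of mitochondrial biogenesis and transcription were examined last. Of 11 tested, 1 rose (9.09%, against 8.03% of all tested genes) and 0 fell by edgeR, with 1 at an unadjusted p under 0.05 (17.2% of all genes were higher at that threshold), and the median log2 fold change was 0.068. *Pprc1*, which encodes a coactivator related to PGC-1α that is induced by growth signals, was at 108, 82.5 and 101 CPM under the scrambled ASO label (replicates 1, 2 and 3) and 186, 144 and 119 CPM under the *Pgam* ASO label. Every library of the second label was above the first, and it rose (log2 fold change 0.62, SE 0.16, edgeR adjusted p = 0.0321). With a library left out it passed only without replicate 3 labelled *Pgam* ASO. Without replicates 1, 2 and 3 labelled scrambled ASO its adjusted p was 0.0647, 0.112 and 0.0513, and without replicates 1 and 2 labelled *Pgam* ASO 0.0819 and 0.102. *Nrf1*, *Gabpa*, *Gabpb1* and *Yy1*, for the factors whose core motifs were searched, had log2 fold changes of 0.12, 0.0076, 0.059 and 0.031, with overlapping groups, and those of *Gabpa* and *Yy1* were below 0 when libraries were scaled by their totals alone. *Myc* was at 309.8, 251 and 306 CPM under the scrambled ASO label and 283, 269.7 and 239 CPM under the *Pgam* ASO label and overlapped (log2 fold change -0.13, SE 0.10, edgeR adjusted p = 0.406). *Tfam*, *Tfb2m* and *Polrmt*, for proteins that transcribe the mitochondrial genome, were at 0.068, -0.11 and 0.13, and *Esrra* and *Ppargc1b* at 0.25 and 0.32. *Ppargc1a* had a count of 0 in every library.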

How the data were processed

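RNA-seq was carried out on 6 libraries of CD4 T cells. For each Ensembl gene the authors deposited kallisto's estimated counts, not normalized. These are whole numbers, so none had to be rounded. The submitters' processing notes name GRCm38. The kallisto version, the annotation release and the summing of transcripts to genes are not given in the sources used here. Of 56748 genes, 52073 had a symbol and 52125 were in GENCODE M21, the source of coordinates and lengths.

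Differences between labels were tested in edgeR 4.0.16 under R 4.3.3 (filterByExpr, TMM, robust quasi-likelihood test, two-sided, Benjamini-Hochberg over 14936 genes, threshold 0.05). TMM factors ran from 0.9721 to 1.029. Overlap of groups was read from TMM-normalized CPM. Alternatives used DESeq2 1.42.0, limma 3.58.1, other scalings and filters, a replicate block, each library left out, counts summed over genes that share sequence, and merged exon length. The procedure was also run on simulated data, from which no value is given here. Libraries of 1 label differed by more than sampling noise (chi-square per degree of freedom 6.75 to 23.6). Sharing of 31-base stretches was counted on GENCODE M21 transcripts, and at least 10% was taken as uncertain.

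Named were, per subunit, the 5 highest and 3 lowest log2 fold changes and the 2 highest and 2 lowest levels per length, untested members, members with special roles, the 2 ends of each related list, the regulators and members with the NRF1 core more than once. *Mrpl10*, *Mrpl22*, *Mrpl32*, *Mrpl34*, *Mrpl46*, *Mrpl48*, *Mrps11*, *Mrps23*, *Mrps34*, *Mars2*, *Rpl22l1*, *Mrpl2*, *Mrps24*, *Mrps27*, *mt-Atp6*, *mt-Co1*, *mt-Co2* and *mt-Nd4* were chosen after their values were seen. Members and lists were chosen with earlier results of these data known. *Mtrfr*, listed as a translation factor, was not matched. No batch is given in the labels, and no protein sequences were used.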

Additional observations from a re-analysis of the deposited data

How the results depend on the processing

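With DESeq2, limma-voom, RLE size factors, scaling by library totals, at least 10 counts in every library, or cytosolic ribosomal and mitochondrially encoded genes left out, 16 to 24 members were called higher and 0 lower, against 19 and 0. With no filter on low counts, 29 members were called higher, 16 of them of the large subunit. At an adjusted p under 0.01, a stricter threshold by construction, 0 were called by edgeR. Fits that left out 1 library, and so had fewer samples, called 0 to 29 members higher, 0 to 16 of the large and 0 to 13 of the small subunit, and 391 to 3484 genes in all.

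Replicate numbers are shared by the labels, but libraries with the same number did not deviate together (r = 0.0534, -0.034 and -0.2367 for replicates 1, 2 and 3, the last negative). Between libraries with different numbers r ran from -0.254 to 0.2796, and not every library correlated best with its own number. With the replicate block 2 members were called higher, 0 of the large and 2 of the small subunit, and 1235 genes in all, with a member median of 0.26.

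No gene named here that passed the test changed sign. With 1 library left out *Mrps17* ranged from -0.026 to 0.13, *Mrps9* from -0.0061 to 0.087, *Mrpl9* from -0.026 to 0.062, *mt-Nd1* from -0.060 to 0.076, *Gabpa* from -0.030 to 0.030 and *Yy1* from -0.0034 to 0.055. In these fits *Mrpl32* ranged from -0.050 to 0.13 and *Mrpl48* from -0.015 to 0.077. With library totals *Mrpl9*, *mt-Nd1*, *Gabpa* and *Yy1* were at -0.024, -0.026, -0.029 and -0.0038, and with at least 10 counts *mt-Nd1* and *Gabpa* at -0.0014 and -0.0039. The cause was not tested. Of the other values of single genes under these alternatives, 802 kept their direction and side of the threshold, 89 no longer passed and 23 newly passed.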

Other observations

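Among the Treg markers, *Il2ra* was at 1946, 1627 and 2216 CPM under the scrambled ASO label and 2908, 2900.1 and 2495 CPM under the *Pgam* ASO label. Within each label its libraries had the same order as the summed level of the mitochondrial ribosomal protein genes, lowest in replicate 2 and highest in replicate 3 labelled scrambled ASO, and highest in replicate 1 and lowest in replicate 3 labelled *Pgam* ASO. *Foxp3* was at 282, 371 and 222 CPM under the scrambled ASO label and 89.7, 109 and 131 CPM under the *Pgam* ASO label, with the reverse order in both labels. The order of libraries is given for these 2 of the 4 Treg markers only, and a relation across libraries was not tested. How many of all tested genes have either order is not given, so the order is not shown to be particular to these genes.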
